A study of Rattus norvegicus with 22 samples.

Results

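The data were RNA levels in the livers of pregnant Wistar rats that received vehicle or the drug EMD 82571 at 50 or 150 mg/kg/day (EMD50 and EMD150). The 6 arrays described here are all maternal liver arrays of the control and EMD 82571 groups, of 22 arrays in the series. The liver of a control, an EMD50 and an EMD150 dam was measured at gestational day 12 and again in other samples at day 20, with 1 array per dose and day. Dosing is given as gestational days 6 to 11 and 6 to 17 in the protocols and as days 6 to 17 in the series text, and which schedule belongs to which liver is not stated. EMD 82571, called MSC1096199 in the design text, belongs to the calcium sensitisers, drugs that raise the response of heart muscle to calcium. The sources used here do not say whether RNA was pooled or whether livers of the same day came from separate dams. The remaining maternal livers, 3 arrays of rats given retinoic acid at 12 mg/kg/day, and 9 control and EMD 82571 arrays of the conceptus (whole embryo, and the liver and bone of embryos) served for comparison only.

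The question the design allows is which liver genes are ordered with dose in the same direction on both days. Liver responds to many drugs through the nuclear receptors PXR and CAR, which bind DNA together with RXR at pairs of short repeats and switch on genes of drug metabolism. Cytochrome P450 enzymes oxidise the drug, transferases then couple it to glucuronic acid or glutathione, and transporters export the product. A second sensor, NRF2, responds to reactive compounds and acts through antioxidant response elements near genes such as those of glutathione transferases.

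The values are log2 probe set levels from RMA. A gene was called ordered when EMD50 lay between control and EMD150 on each day, in the same direction. A straight line on dose with the day as a block gave a fitted change from 0 to 150 mg/kg/day. It is printed with limma's moderated standard error, in which each probe set's spread is drawn towards that of all probe sets of similar level. The 6 arrays leave 3 residual degrees of freedom, so a printed error does not come from the gene's own arrays alone. Levels cannot be compared between genes, since each probe set has its own response. In liver tissue, fewer cells of a type and less RNA per cell cannot be told apart.

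The liver label was checked with hepatocyte genes. Fgb, a fibrinogen gene, was at 13.77 to 14.06 on the 6 arrays and Ttr, the transthyretin gene, at 14.19 to 14.42. Alb (serum albumin) was at 15.15 to 15.22, which includes the highest value of any probe set, so differences in it may be compressed. The 11 hepatocyte markers had a median fitted change of 0.00. Array medians ran from 8.09 to 8.13, and array SDs from 1.60 to 1.72, with the lowest SD of each day on the EMD150 array. Arrays correlated with r = 0.985 to 0.995 within a day and 0.975 to 0.985 between days, across probe sets, which are not independent replicates. The difference between the GAPDH 3′ and 5′ control probe sets, a measure of RNA integrity, ran from 0.586 to 0.796. Across probe sets the fitted change had r = -0.21 with the mean level, and the EMD150 minus control differences of day 12 and day 20 had r = 0.16. All of these are descriptions.

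No probe set passed the dose slope test. Of 15866 probe sets, 0 were called at a Benjamini-Hochberg adjusted p under 0.05 by limma (0% in each direction), and the smallest adjusted p was 0.909. At an unadjusted p under 0.05 there were 334 with a higher and 312 with a lower level, 2.11% and 1.97% of those tested. No probe set was called for EMD50 against control (smallest adjusted p 0.91, with 503 or 3.17% at an unadjusted p under 0.05), EMD150 against control (0.439, with 531 or 3.35%) or EMD150 against EMD50 (0.583, with 1335 or 8.41%) in limma's fit. The slope did not pass a test of a difference between the days for any probe set either (smallest adjusted p 0.373, 479 or 3.02% at an unadjusted p under 0.05). The levels and orders given for single genes are therefore descriptions.

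Of all probe sets, 419 probe sets were ordered upward on both days (2.64% of those tested) and 226 downward (1.42%). Arrays in random order would also give ordered probe sets. The counts were not tested against that, so they do not show an excess of ordered probe sets. Most of the ordered differences were small: 262 of the 419 had a fitted change under 0.2, and 12 had one of at least 0.5. Among the 226 ordered downward, 109 were under 0.2 in size and 18 reached 0.5. The split between directions moved with the scaling of the arrays. When all arrays were given the same median and SD, 328 were ordered upward and 323 downward, of which 196 and 141 were also ordered in the same direction in the values as deposited. Quantile normalisation gave 379 and 302, with 220 and 126 shared. The median fitted change of all probe sets was 0.012 as deposited, -0.014 with the same median and SD and 0.0054 after quantile normalisation.

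**Figure D1:**
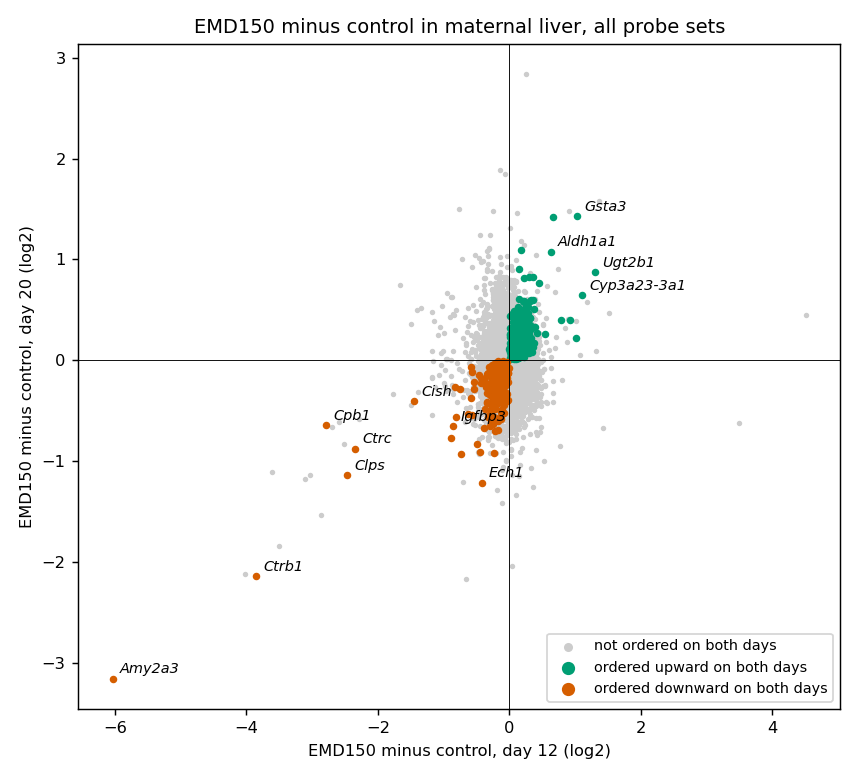
EMD150 minus control on day 12 (x axis, log2) against the same difference on day 20 (y axis, log2), 1 point per probe set (15866), with the 419 probe sets ordered upward and the 226 ordered downward on both days in colour. The upward genes labelled are Gsta3, Ugt2b1, Cyp3a23-3a1 and Aldh1a1. Among the downward genes that are labelled, Amy2a3 and Ctrb1, both digestive enzyme genes of the pancreas, stand farthest out.

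The genes with the largest upward order were of drug metabolism. Gsta3, Ugt2b1, Cyp3a23-3a1 and Aldh1a1 had EMD150 minus control differences above 0.6 log2 units on both days. In all, 5 probe sets (0.0315%) were ordered upward with a difference of at least 0.5 on both days, and 11 (0.0693%) downward. Promoter stretches of 2 cytochrome P450 3A genes are shown because they hold the kind of DNA element through which PXR and CAR are known to act. The sequences below are from RefSeq (GRCr8), are written 5′ to 3′ on the gene's strand, and have in capitals a direct repeat of half-sites 3 bases apart.
Cyp3a23-3a1: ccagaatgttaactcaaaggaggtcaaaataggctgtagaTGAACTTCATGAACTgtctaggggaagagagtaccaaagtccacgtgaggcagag
Cyp3a2: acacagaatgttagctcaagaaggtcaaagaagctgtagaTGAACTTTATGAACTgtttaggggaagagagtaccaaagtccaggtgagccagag
The Cyp3a23-3a1 stretch lies at chr12:14398893-14398987 on the minus strand, upstream of the gene's start, with the repeat at positions -144 to -130. In Cyp3a2 the stretch lies at chr12:14343934-14344028, also on the minus strand, with the repeat at -131 to -117. Without gaps, 72 of the 95 positions are identical. The search took half-sites reading AGGTCA or AGTTCA, on both strands of the 250 bases upstream of a start. Such a repeat 3 bases apart was found in 13 of 33469 RefSeq windows (0.0388%), which include these. Also searched were a direct repeat 4 bases apart, found in 5 windows, and half-sites facing apart with 6 bases between, found in 1. Of the 54 genes named here by rule, 48 had a window, and the repeat 3 bases apart was found in the windows of Cyp3a23-3a1 and Cyp3a2. Neither of the other repeats was found in the windows of the named genes. A match describes letters and says nothing of binding.

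Cyp3a23-3a1 encodes a cytochrome P450 that oxidises many drugs and steroids. On day 12 its level was 12.15 in control, 12.97 at EMD50 and 13.26 at EMD150, and on day 20 it was 11.52, 11.78 and 12.16. The EMD150 liver of day 20 was level with the control of day 12. The retinoic acid livers lay at 12.05 and 12.18 on day 12 and at 12.45 on day 20, the last above that day's EMD150 liver. The fitted change was 0.82 ± 0.18, a 1.77-fold difference (limma, adjusted p = 0.937). Cyp3a18, a related enzyme gene, lay at 8.95, 9.05 and 9.74 on day 12 and at 7.09, 7.44 and 7.49 on day 20. Nearly all of its day 12 difference came between EMD50 and EMD150, and nearly all of its day 20 difference between control and EMD50. The line gave 0.59 ± 0.15. Cyp3a2, a form that is known to be low in female rat liver, was near the lower end of the array's range, at 5.88, 6.06 and 6.43 on day 12 and 5.76, 5.76 and 6.02 on day 20. The fitted change of Cyp3a2 was 0.41 ± 0.08, and the day 20 EMD50 and control levels were the same to 2 decimals.

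Not every member of the family followed. Cyp3a9 lay at 12.42, 12.65 and 12.15 on day 12 and 12.50, 12.43 and 11.67 on day 20, with a fitted change of -0.61 ± 0.19. Nr1i2, which encodes PXR itself, was at 9.60, 9.65 and 9.49 on day 12 and at 10.82, 10.80 and 10.11 on day 20, with a fitted change of -0.44 ± 0.17. For both genes the lowest array of each day was EMD150. The drug oxidation list (P450 enzymes, their reductases and the receptors) held 37 genes, of which 29 had a probe set with 1 gene symbol. Cyp2b1 and Cyp2b2 were not among them, so nothing is said of these genes. Of the 29 measured genes, 22 had a fitted change above 0, against 50.3% of 10411 genes. Ordered upward on both days were 5 (17.2%, against 2.52% of genes), and 0 were ordered downward. These were Cyp3a23-3a1, Cyp3a18, Cyp3a2, Cyp2c7 and Cyb5a, the last being the cytochrome b5 that passes electrons to P450 enzymes. The list's median fitted change was 0.13, against 0.001 over all genes. Its median difference from control at EMD50 was 0.055 on day 12 and -0.008 on day 20, so the list was not ordered with dose as a whole.

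Cyp2c7, one of the most abundant P450 genes of female liver, stood at 14.30, 14.36 and 14.44 on day 12 and at 13.86, 14.12 and 14.30 on day 20. That is a fitted change of 0.27 ± 0.13. Cyp2c22, which codes for another enzyme of the 2C group, had a larger fitted change of 0.71 ± 0.18 but was not ordered on day 12, where control was 13.15, EMD50 13.14 and EMD150 13.55. On day 20 it was 11.96, 12.61 and 13.01. The electron donor gene Por differed between the days: EMD150 was the highest array on day 12 (10.22, 10.11 and 10.75) and the lowest on day 20 (11.45, 11.63 and 11.37).

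Gsta3 codes for a glutathione transferase of the alpha class, which couples glutathione to reactive compounds. Its level was 9.59, 10.34 and 10.62 on day 12 for control, EMD50 and EMD150. On day 20 it was 7.57, 8.35 and 9.0. The days did not overlap, since the highest array of day 20 lay below the day 12 control. The retinoic acid livers lay at 9.22 and 9.39 on day 12 and at 9.57 on day 20, the last above that day's EMD150 liver. The fitted change of 1.16 ± 0.19, or 2.23-fold, was the largest among the genes ordered upward (limma, adjusted p = 0.909). Leaving out 1 array at a time and the other settings tried kept it between 0.95 and 1.45. Its sign could not turn without 1 array, since the gene is ordered on both days. The 250 bases before its start hold TGACTTCGC, at -17 to -9, a match to the core TGACNNNGC of antioxidant response elements. That core was found in 3373 of the 33469 windows (10.1%) on either strand, so it is common. Among the named genes it also lay before Abcg5, Abcg8, C1galt1, Cbfa2t2, Nsdhl, Pla2g6 and Ssr1. It lay before Ctrc, Fbp1 and Pde8a too, which were ordered downward.

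Mgst2, a membrane-bound glutathione transferase gene, lay at 11.00, 11.36 and 11.45 on day 12 and 10.65, 10.85 and 11.42 on day 20. Gsta4, whose enzyme removes products of lipid peroxidation, lay at 11.23, 11.33 and 11.45 and then at 10.57, 11.07 and 11.39. In both genes the controls of the 2 days differed, by more in Gsta4, while the EMD150 levels lay within 0.1 of each other. The retinoic acid livers were at 11.16 and 11.33 on day 12 and 11.47 on day 20 for Mgst2. For Gsta4 they were at 11.61 and 11.47 on day 12 and 11.90 on day 20. The fitted changes were 0.59 ± 0.15 for Mgst2 and 0.49 ± 0.17 for Gsta4. The mu class genes Gstm1 (0.50 ± 0.14) and Gstm2 (0.59 ± 0.20) were highest at EMD150 on both days but had an EMD50 level below control on day 20. Among 19 glutathione transferase genes, 3 were ordered upward (15.8%, against 2.52% of genes) and 0 downward, 13 had a fitted change above 0, and the median was 0.10. On day 20 the list's median difference from control was 0.27 at EMD50 and 0.20 at EMD150, so the list was not ordered with dose as a whole. Mgst1, a microsomal member, lay between 13.81 and 14.06 on all 6 arrays. Txn1, the thioredoxin gene and an NRF2 target, was ordered upward with a fitted change of 0.16 ± 0.13, about the size of its error, and the other 24 measured genes of the NRF2 and glutathione synthesis list were not ordered.

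Ugt2b1 encodes an enzyme that couples drugs and steroids to glucuronic acid. It lay at 11.24, 11.94 and 12.55 on day 12 and at 10.66, 11.12 and 11.53 on day 20. Each of the steps was at least 0.4, and the day 20 EMD150 level was below the day 12 EMD50 level. The retinoic acid livers lay at 11.28 and 11.16 on day 12 and at 11.68 on day 20, the last above that day's EMD150 liver. The fitted change was 1.04 ± 0.17, a 2.06-fold difference (limma, adjusted p = 0.909). Other measured genes of the glucuronyl transferase list lay closer to 0. Ugt2b15 was at 10.68, 11.04 and 11.10 on day 12 and at 10.35, 10.74 and 10.54 on day 20, a fitted change of 0.25 ± 0.17. The list held 21 genes, of which 8 had a probe set with 1 gene symbol. No Ugt1a gene was among them, so the list does not cover the family. The 8 were Ugt2a1, Ugt2b1, Ugt2b7, Ugt2b15, Ugt2b35, Ugt8, Ugdh and Ugp2. Of these 8, 1 was ordered upward and 7 had a fitted change above 0. The list's median was 0.16, with EMD150 minus control medians of 0.26 on day 12 and -0.01 on day 20. Without the day 12 EMD150 array the fitted median was 0.036.

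Aldh1a1 codes for an aldehyde dehydrogenase that oxidises retinal to retinoic acid and also clears drug aldehydes. Its levels were 10.89, 11.11 and 11.53 on day 12, and 9.93, 10.18 and 11.00 on day 20. The larger step of each day was that from EMD50 to EMD150. The fitted change was 0.87 ± 0.15 (limma, adjusted p = 0.937). In the livers of retinoic acid-treated dams Aldh1a1 lay at 9.71 and 10.16 on day 12, below that day's control, and at 10.65 on day 20. Ephx1, the microsomal epoxide hydrolase gene, was ordered on day 12 (12.10, 12.52 and 12.95) but on day 20 reached 11.97 at EMD50 and 11.96 at EMD150, from 11.64 in control. Its fitted change was 0.55 ± 0.17. Ces2c, a carboxylesterase gene, also had its highest day 20 level at EMD50 (8.51, 8.81 and 8.69, after 8.40, 8.71 and 9.28 on day 12). Of the 19 genes in the list of carboxylesterases, epoxide hydrolases and aldehyde dehydrogenases, 1 was ordered upward and 10 had a fitted change above 0, with a median of 0.02.

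**Figure D2:**
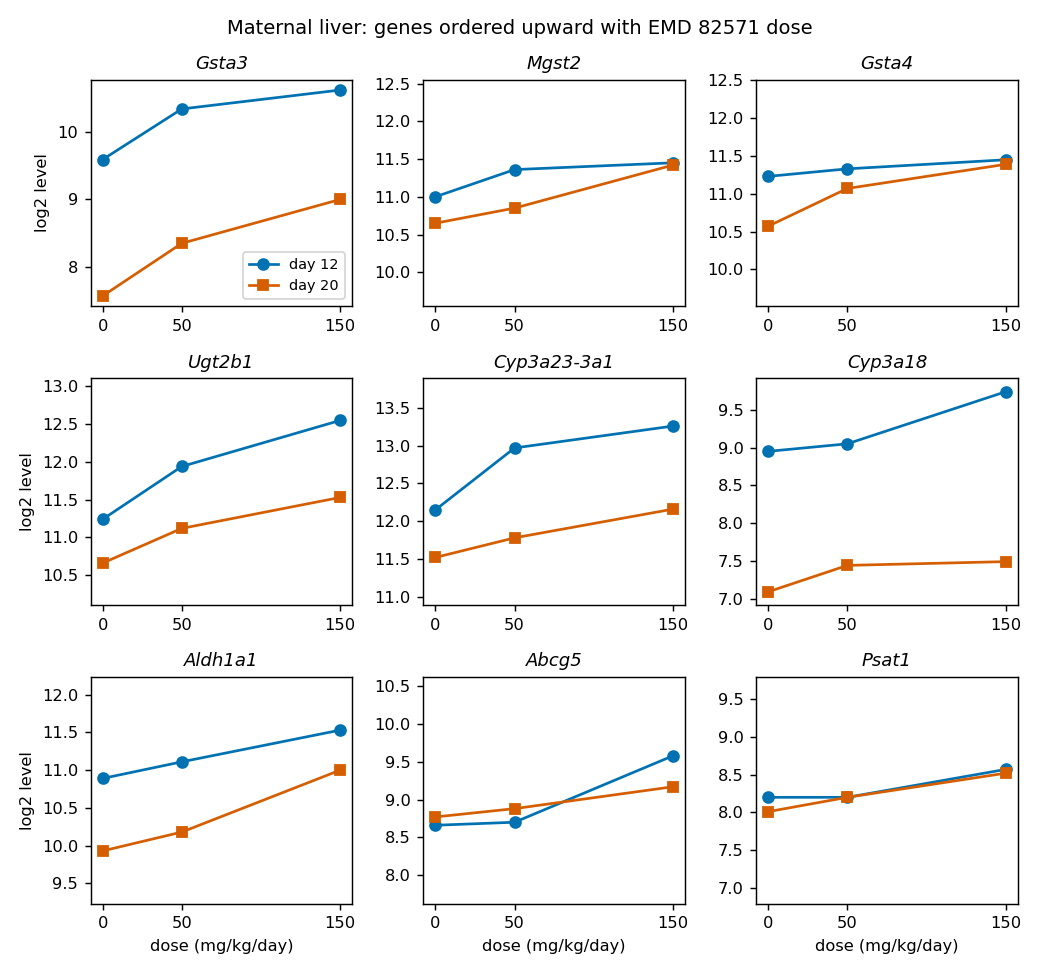
Log2 level (y axis, 3 log2 units or more per panel) against EMD 82571 dose in mg/kg/day (x axis) for 9 genes ordered upward, with 1 point per array for day 12 (circles) and day 20 (squares). Gsta3 and Ugt2b1 show a step at each dose on each day, whereas Abcg5 and Cyp3a18 on day 12 stay near control at 50 mg/kg/day and are higher at 150 mg/kg/day.

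Abcg5 and Abcg8 encode the partner subunits of the pump that exports sterols into bile, and they lie head to head. Their RefSeq starts are 206 bases apart, and the stretch between them is shown because it is shared by both genes. It lies at chr6:15717731-15717935 (GRCr8), is written on the plus strand, the strand of Abcg5, and has in capitals a match to TGACNNNGC.
Abcg5-Abcg8: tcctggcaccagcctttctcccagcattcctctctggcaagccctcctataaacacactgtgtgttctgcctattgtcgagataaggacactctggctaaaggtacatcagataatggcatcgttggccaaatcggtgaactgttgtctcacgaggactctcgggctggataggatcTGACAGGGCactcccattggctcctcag
Abcg5 lay at 8.66, 8.70 and 9.58 on day 12 and at 8.77, 8.88 and 9.17 on day 20. Abcg8 lay at 7.47, 7.77 and 8.04 on day 12 and at 7.36, 7.31 and 8.09 on day 20, so it was not ordered on day 20. The EMD150 array was the highest for both genes on both days. Their fitted changes were 0.69 ± 0.17 and 0.67 ± 0.14. Both were lower than control in 2 day 12 livers given retinoic acid (8.09 and 7.64 for Abcg5, 6.96 and 6.99 for Abcg8). In the day 20 retinoic acid liver Abcg5 was at 8.49, below that day's control, and Abcg8 at 7.70, above it.

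Other transporter genes were not ordered on both days. Abcc3, an export pump for glucuronides, was at 7.36, 7.95 and 8.68 on day 12 and at 7.16, 6.94 and 7.25 on day 20. Its fitted change of 0.72 ± 0.23 came from day 12. Slco1a4, an uptake carrier for organic anions, lay at 10.95, 11.80 and 11.65 on day 12 and 10.02, 10.21 and 10.70 on day 20, with a fitted change of 0.63 ± 0.21. It was above control on all 4 EMD 82571 arrays but was not ordered on day 12. The uptake carrier Slco1b2 lay at 12.50, 12.71 and 12.51 on day 12 and at 12.04, 11.89 and 11.50 on day 20. Of 22 transporter genes 1 was ordered upward (4.55%, against 2.52% of genes), 0 downward, and the median was 0.02.

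Among genes of cholesterol synthesis 3 of 20 were ordered upward (15%, against 2.52% of genes) and 0 downward, with a median of 0.09. Ebp, the sterol isomerase gene, lay at 12.00, 12.01 and 12.19 on day 12 and at 11.37, 11.57 and 12.46 on day 20, so that its fitted change of 0.66 ± 0.21 came mostly from the day 20 EMD150 array. Msmo1, a methyl sterol oxidase gene, was at 11.78, 11.99 and 12.01 and then 11.84, 12.02 and 12.36 (fitted change 0.36 ± 0.14). Nsdhl, which acts next in the same demethylation, had a fitted change of 0.23 ± 0.15. In the retinoic acid livers Nsdhl lay at 11.38 and 11.46 on day 12 and at 11.60 on day 20, against 11.45 and 11.07 at EMD150. The median EMD150 minus control difference of the list was 0.24 on day 12 and 0.003 on day 20. Srebf2 and Scap, which encode the regulators of the pathway, lay within 0.04 of 0 in fitted change.

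Several genes outside the drug metabolism lists were ordered upward. Psat1 and Phgdh code for enzymes of serine synthesis. Psat1 lay at 8.20, 8.20 and 8.57 on day 12 and at 8.01, 8.20 and 8.52 on day 20 (fitted change 0.45 ± 0.11), so its first day 12 step was too small to show at 2 decimals. Phgdh lay at 7.71, 7.74 and 7.86 and then at 7.69, 7.83 and 8.08 (0.27 ± 0.11). Ccl6, a chemokine gene of macrophages and neutrophils, was at 11.05, 11.21 and 11.41 on day 12 and at 10.37, 10.74 and 11.20 on day 20, with a fitted change of 0.58 ± 0.15. Of 9 Kupffer cell and macrophage genes 0 were ordered upward, and of 5 neutrophil genes 1 was (20%, against 2.52% of genes), Np4 at 0.19 ± 0.09. C1galt1, whose enzyme builds O-linked sugar chains, had a fitted change of 0.47 ± 0.12, and its other probe set was also ordered upward (0.27). In the retinoic acid livers C1galt1 lay at 9.15 and 9.03 on day 12 and at 9.13 on day 20, against 9.10 and 8.78 at EMD150. Serpina3m, Ssr1, Frmd5, Cbfa2t2 and Pla2g6 had fitted changes of 0.33 to 0.46. For Pla2g6, a phospholipase gene, 2 further probe sets lay at -0.10 and -0.03, so its probe sets disagree. A second Frmd5 probe set was not ordered and lay at 0.05. Apoa2, Hyou1 and Hspd1, which code for an apolipoprotein and 2 chaperones, were ordered upward with fitted changes of 0.23, 0.14 and 0.07, none as large as 2 standard errors.

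Among the genes ordered downward were 5 of pancreatic digestive enzymes, which had the largest values. Amy2a3, the pancreatic amylase gene, lay at 11.39, 10.35 and 5.36 on day 12 and at 8.42, 5.26 and 5.26 on day 20. The levels at day 12 EMD150 and at both doses on day 20 are close to the lowest value of any probe set, 4.88, and to the 5.30 to 5.40 of the 3 retinoic acid livers. The line gave -4.47 ± 0.86, whose size is not exact with 3 arrays near the floor, and its order on day 20 rests on a step too small to show at 2 decimals. Ctrb1, the gene of chymotrypsinogen, lay at 10.71, 10.09 and 6.86 on day 12 and at 8.88, 6.75 and 6.74 on day 20, against 6.69 to 6.77 in the retinoic acid livers. Clps (-1.76 ± 0.35), Cpb1 (-1.68 ± 0.40) and Ctrc (-1.56 ± 0.30), genes of colipase, carboxypeptidase B and chymotrypsin C, had the same arrays high: day 12 control, day 12 EMD50 and day 20 control.

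All 17 measured acinar markers had a fitted change below 0, with a median of -1.68 (-0.96 without day 12 EMD150 and -2.66 without day 20 EMD150), and all had an unadjusted p under 0.05 (background 2.13% of genes). Of these 5 were ordered downward on both days (29.4%, against 1.62% of genes), and in each of the others except Cpa1 the day 20 EMD150 level lay slightly above that of EMD50. The median difference from control was -0.68 at EMD50 and -2.70 at EMD150 on day 12, and -0.90 and -0.87 on day 20. The log2 of the summed levels was 14.5, 13.8 and 11.9 on day 12 and 13.5, 13.1 and 12.7 on day 20. These sums weigh each gene by the response of its probe set and do not measure RNA amount. By that weight Cpa1 was the largest part of the day 20 sums. It lay at 12.21, 12.60 and 11.88 there and, unlike the other acinar genes, was higher on day 20 than on day 12. In the conceptus the list's median fitted change was 0.08.

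**Figure D3:**
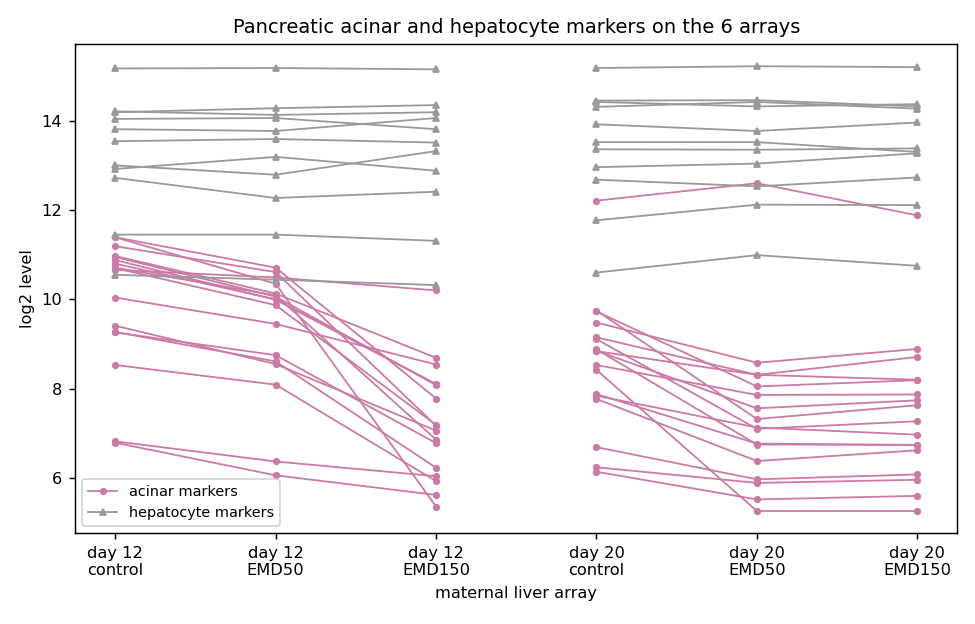
Log2 level (y axis) of 17 pancreatic acinar markers (circles) and 11 hepatocyte markers (triangles) on the 6 maternal liver arrays (x axis, by day and dose), with 1 line per gene within a day. Most acinar markers are high in the day 12 control and EMD50 livers, lower in the day 20 control and lowest in the other 3, while hepatocyte markers such as Fgb (13.77 to 14.06) vary little. The single acinar line near 12 on day 20 is Cpa1.

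A few fat cell markers were also highest in a control. Fabp4, the fatty acid binding protein of adipocytes, lay at 8.24, 5.61 and 5.74 on day 12 and at 6.47, 5.69 and 5.64 on day 20. Ucp1, a marker of brown fat, was at 8.24 in the day 12 control and between 6.54 and 7.02 on the other 5 arrays. Over the 7 adipocyte markers 1 was ordered downward, and the log2 of the summed levels was 13.1, 12.6 and 12.7 on day 12 and 13.7, 13.7 and 13.5 on day 20. A fitted change above 0 was found in 2 of the 7, and on day 20 the summed level, again weighted by probe set response, hardly differed between control and EMD50. Most acinar transcripts were high on the control arrays against which the doses are compared, as was Fabp4, and the part of either in the orders of other genes was not tested.

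Igfbp3 had the smallest p among liver-expressed genes ordered downward and codes for the main carrier of insulin-like growth factors in blood. It lay at 9.73, 9.49 and 8.88 on day 12 and at 9.75, 9.68 and 9.09 on day 20. The levels of the 2 days overlapped, and both EMD150 arrays lay below all others. The fitted change was -0.77 ± 0.13 (limma, adjusted p = 0.909). A second probe set was also ordered downward, at 9.80, 9.59 and 9.31 on day 12 and 10.19, 10.05 and 9.36 on day 20 (-0.67 ± 0.14).

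Cish, a feedback inhibitor of cytokine and growth hormone signalling that STAT5 switches on, lay at 8.99, 7.92 and 7.55 on day 12 and at 9.53, 9.49 and 9.13 on day 20. Most of the day 12 difference was present at EMD50, most of that of day 20 at EMD150 only. Its fitted change was -0.87 ± 0.25. Of 36 measured sex- and growth hormone-dependent liver genes, 3 were ordered upward (Cyp3a18, Cyp3a2 and Cyp2c7; 8.33%, against 2.52% of genes) and 3 downward (Cish, Igfbp3 and the growth factor gene Igf1; 8.33%, against 1.62%). Igf1 lay at -0.18 ± 0.13. Serpina6, the corticosteroid-binding globulin gene of the lipoprotein and carrier protein list, was ordered downward with a fitted change of -0.10 ± 0.13, a value within its error whose sign turned to 0.01 when arrays were given the same median and SD.

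Genes of fatty acid oxidation were more often lower than higher. Ech1, an enoyl-CoA isomerase gene of mitochondria and peroxisomes, lay at 10.74, 10.47 and 10.32 on day 12 and at 12.31, 11.84 and 11.10 on day 20. On the 6 arrays its day 20 levels were all above those of day 12. The retinoic acid livers lay at 10.89 and 10.55 on day 12 and at 10.72 on day 20, the last below that day's EMD150 liver. The fitted change was -0.79 ± 0.19. Acadm, the medium-chain acyl-CoA dehydrogenase gene, was at 12.34, 12.28 and 12.13 and then 12.62, 12.57 and 12.25 (-0.30 ± 0.13). Decr1, needed for unsaturated fatty acids, had a fitted change of -0.16 ± 0.13. Of 51 measured genes of oxidation and PPAR-alpha targets, 3 were ordered downward (5.88%, against 1.62% of genes), 0 upward, and 11 had a fitted change above 0. The list's median was -0.08 and lay at -0.06 and -0.03 in the rescaled and quantile normalised values. Fatty acid and triglyceride synthesis genes had 0 of 29 ordered in either direction, and their median of -0.04 turned to 0.03 after quantile normalisation.

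Enzyme genes of amino acid breakdown and glucose production also had medians below 0 at EMD150. At EMD50 on day 20 the medians lay above control, by 0.13 for amino acid breakdown, 0.17 for gluconeogenesis and 0.06 for fatty acid oxidation, after -0.01, -0.09 and -0.05 on day 12, so these lists were not ordered with dose as a whole. Gnmt, whose enzyme uses the methyl donor S-adenosylmethionine, lay at 12.91, 12.80 and 12.33 on day 12 and at 12.24, 12.20 and 11.87 on day 20, a fitted change of -0.49 ± 0.13. Ahcy, which acts on the product of that reaction, was at 12.37, 12.22 and 12.10 and then 12.62, 12.53 and 12.40 (-0.24 ± 0.13). Both belong to the list of sulfotransferases, acetyl and methyl transferases, not to those of amino acid breakdown or glucose production. Of its 24 measured genes these 2 were ordered downward (8.33%, against 1.62% of genes) and 0 upward. A fitted change above 0 was found in 13 of the 24.

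Asl and Ass1 code for neighbouring steps of the urea cycle. Asl lay at 11.18, 11.09 and 10.90 on day 12 and at 11.95, 11.88 and 11.35 on day 20, with a fitted change of -0.45 ± 0.14. A second Asl probe set had -0.61 but was not ordered on both days. Ass1 had a fitted change of -0.21 ± 0.13. Ftcd, which breaks down histidine, lay at 12.63, 12.55 and 12.46 and then at 12.49, 12.44 and 11.81 (-0.45 ± 0.16), with most of the difference on the day 20 EMD150 array. Of 44 genes of amino acid breakdown and the urea cycle, 3 were ordered downward (6.82%, against 1.62% of genes), 0 upward, and 12 had a fitted change above 0, with a median of -0.14. Fbp1, fructose-1,6-bisphosphatase of gluconeogenesis, lay at 13.01, 12.71 and 12.68 on day 12 and at 13.43, 13.09 and 13.01 on day 20, with most of each day's difference reached at EMD50. Its fitted change was -0.33 ± 0.15. It was the single ordered gene of 25 in the gluconeogenesis and glycogen list, of which 20 had a fitted change below 0 (median -0.10).

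**Figure D4:**
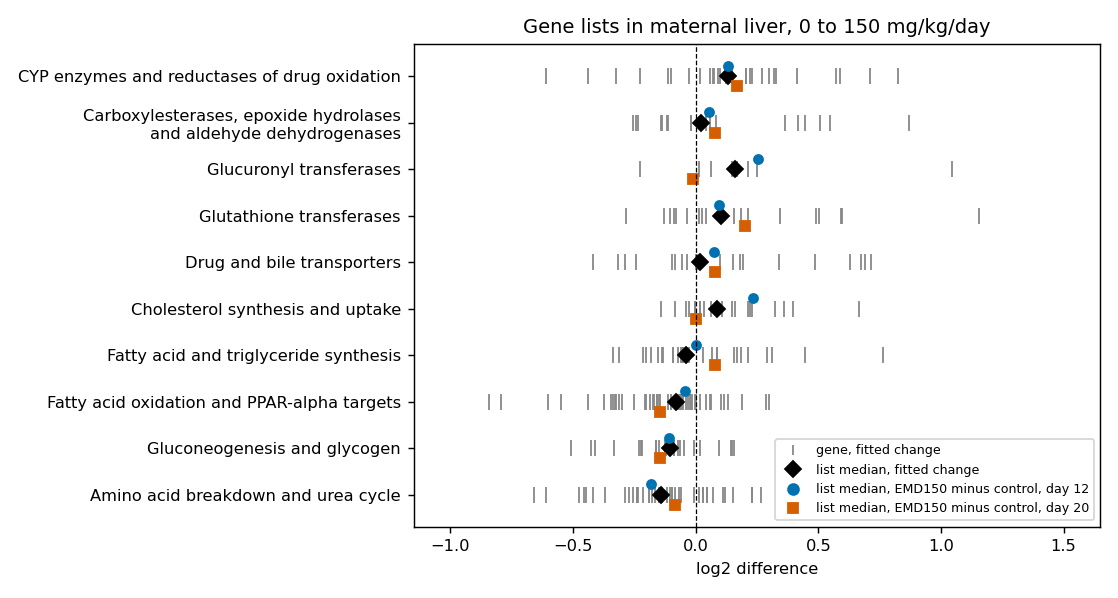
Fitted log2 change from 0 to 150 mg/kg/day of each measured gene (ticks) and its median (diamonds) for 10 gene lists (y axis), with the median EMD150 minus control difference on day 12 (circles) and day 20 (squares), all on the x axis in log2 units. The dashed line is the median of 10411 genes. EMD150 minus control medians of the P450, glutathione transferase, carboxylesterase, transporter, cholesterol and fatty acid synthesis lists lie above 0 on both days. Those of fatty acid oxidation, gluconeogenesis and amino acid breakdown lie below 0 on both days. All of these are within 0.25 of 0. EMD50 medians, not drawn, were above 0 on day 20 for the last 3 of these lists. On day 20 the EMD50 median was -0.008 for the P450 list. For the glutathione transferase list it was 0.27, above the 0.20 at EMD150. The day 20 EMD50 median also exceeded that of EMD150 for carboxylesterases (0.25 and 0.08), cholesterol (0.18 and 0.003) and fatty acid synthesis (0.25 and 0.08). For transporters it was -0.09, below control.

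Further genes ordered downward had varied roles. RT1-T24-4, a class Ib gene of the major histocompatibility complex with close relatives whose transcripts its probes may share, lay at 10.53, 10.21 and 9.73 on day 12 and at 11.23, 10.99 and 10.67 on day 20 (-0.67 ± 0.13). In the retinoic acid livers it was at 10.37 and 10.77 on day 12 and at 10.38 on day 20, the last below that day's EMD150 liver. Cfd, which encodes complement factor D and is made chiefly by fat cells, lay at 8.62, 8.18 and 8.17 and then at 9.05, 8.59 and 8.15 (-0.62 ± 0.16). Fabp4, above, was also highest in each day's control. Ggnbp2 was at 9.30, 9.20 and 8.67 on day 12 and at 8.37, 8.23 and 7.84 on day 20 (-0.59 ± 0.12).

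Nr1d1, the clock repressor REV-ERB alpha, lay at 5.93, 5.92 and 5.73 on day 12 and at 6.89, 6.61 and 6.29 on day 20 (-0.39 ± 0.09). It was the single ordered gene among 14 clock genes, and the sources used here do not state the hour of sampling. Xbp1, a factor of the unfolded protein response, had -0.36 ± 0.14 (11.57, 11.56 and 11.36, then 12.32, 12.20 and 11.84), and Apoa5, a regulator of plasma triglycerides, -0.31 ± 0.13. Rbm39, a splicing factor gene, had a fitted change of -0.54 ± 0.15 in the probe set that was ordered, and its 3 other probe sets, not ordered, lay at -0.30, -0.06 and -0.19. Imp3 and Ctnnbl1 were at -0.44 and -0.38. Of the 24 troponin and phosphodiesterase genes, the group that holds known targets of calcium sensitisers, 0 were ordered upward and 1 downward, Pde8a at -0.16 ± 0.13.

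**Figure D5:**
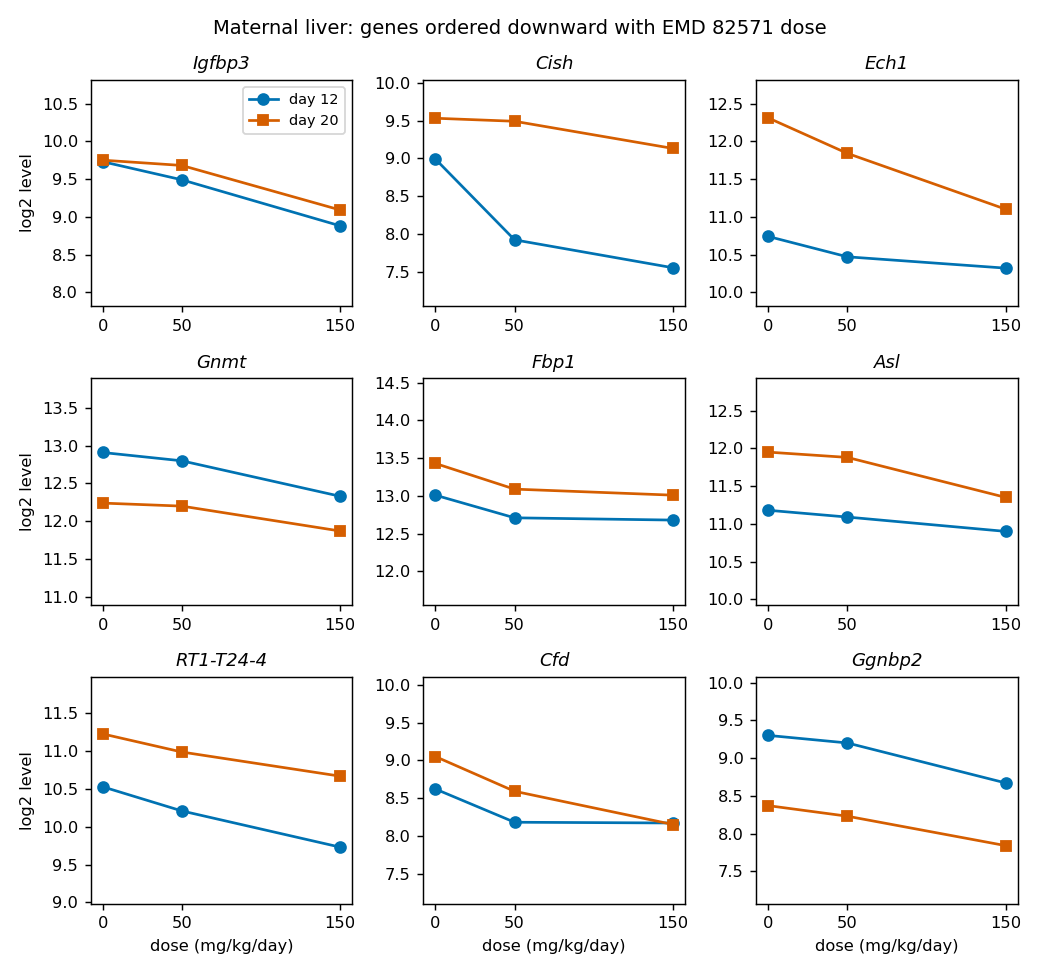
Log2 level (y axis, 3 log2 units or more per panel) against EMD 82571 dose in mg/kg/day (x axis) for 9 genes ordered downward that are not pancreatic markers, with 1 point per array for day 12 (circles) and day 20 (squares). Cish on day 12 is lower from 50 mg/kg/day, whereas Igfbp3 and Gnmt are lowest at 150 mg/kg/day.

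The maternal slope was set against that of the 9 conceptus arrays. In a fit of all 15 control and EMD 82571 arrays no probe set was called for the difference (limma, smallest adjusted p 0.613; 482 or 3.04% at an unadjusted p under 0.05). Ugt2b1 had a conceptus change of 0.16, and its maternal slope was higher by 0.89 ± 0.19 (adjusted p = 0.613). For Cyp3a23-3a1 the conceptus change was -0.04 and the difference 0.86 ± 0.21, and for Gsta3 they were 0.16 and 0.998 ± 0.28. In whole embryo, Gsta3 was above control at both doses, by 0.70 and 0.61. Gnmt and the downward ordered genes of amino acid breakdown, fatty acid oxidation and gluconeogenesis often had a negative change in the conceptus too. Gnmt had -0.58 ± 0.31, Ech1 -0.67 ± 0.24, Fbp1 -0.73 ± 0.23 and Asl -0.34 ± 0.21 there. The conceptus tissues did not always go the same way, since Gnmt at EMD150 was -1.56 from control in embryo liver and 0.28 in whole embryo. For these genes the differences between maternal liver and conceptus were at most 0.40 in size. Ass1 had a conceptus change of -0.92 ± 0.51 and a difference of 0.71 ± 0.80. None of these differences passed the test.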

How the data were processed

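RNA was measured on single-colour expression arrays, 1 per sample. The values deposited by the authors are log2 probe set levels, made with RMA per the submitters' processing notes. Its version and a genome build were not given in the sources used here. Of 15923 rows, 57 array controls were left out, and 15866 probe sets were tested without a filter. Of these 12783 had 1 gene symbol, 312 several and 2771 none. limma 3.58.1 in R 4.3.3 (lmFit and eBayes with an intensity trend, two-sided) fitted dose as a number with the day as a block, and the Benjamini-Hochberg adjustment ran over all probe sets. The days are the only repeats of a dose, so the spread is that around a line shared by both days, and the number of arrays limits the precision. Whether the samples are separate animals is not stated, and p-values measure only the spread between these arrays. Tested on simulated data for the slope (15866 probe sets, 200 of them changed, 5 draws), the fit called 99.2% of changes of 1 log2 unit and 100% of those of 2. The simulated noise was the fit's own smoothed spread; in the data Gsta3 (1.16) and larger changes of pancreatic genes were not called, so these shares do not carry over to the data.

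With no gene called, the named genes are the 15 per direction that were ordered on both days with the largest value of the smaller of both days' EMD150 minus control differences. Up to 4 ordered genes of each pathway list, the 5 smallest p-values per direction and Cyp3a23-3a1, Ugt2b1 and Gsta3 were added, 54 genes in all. Genes not ordered on both days, such as Cyp3a9, Nr1i2 and Abcc3, and the fat cell genes were chosen after their values were seen. Lists (24 of pathways, 12 of cell types, 673 of 850 genes measured) used the probe set with the highest mean level per gene. A listed gene counted as measured when a probe set carried its symbol alone, so genes found only on probe sets of several symbols were left out. Medians are given for 12 of them, and those of the other 24 lay between -0.23 and 0.11. The members and lists were chosen with earlier results of these data known. Alternatives were other dose scales, array scalings, filters, variance models and sets of arrays. Promoter sequences came from RefSeq (GRCr8).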

Additional observations from a re-analysis of the deposited data

Results flagged for a closer look

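Among 7 red blood cell markers the median EMD150 minus control difference was -0.12 on day 12 and 0.47 on day 20, opposite signs that were not tested. Hbb, the gene of beta globin, lay below the day 12 control (differences of -1.25 at EMD50 and -1.17 at EMD150), to reach 12.75 and 12.83, and was at 12.52, 13.36 and 12.99 on day 20, so that the day 12 control was the highest array and the day 20 control the lowest. Alas2, the first enzyme of haem synthesis in red cells, lay at 10.70, 9.26 and 9.04 and then at 8.51, 9.94 and 9.26, the same order of controls.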

How the results depend on the processing

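The slope called 0 probe sets under each of 8 further settings, and 6 in a fit of all 22 arrays, all lower and all in the acinar list. Leaving out 1 array at a time gave 0 to 21 called: 1 without day 12 EMD150 (Scd2), 1 without day 20 EMD50 and 21 without day 20 EMD150, 19 of them lower and 15 in the acinar list. Without 1 array, calls ranged from 0 to 22 for the difference from the conceptus (22 without day 20 EMD150, 5 without day 20 EMD50, and 1 each without day 12 control and day 12 EMD150). They ranged from 0 to 77 for EMD50 against control (76 and 77 without the EMD150 array of day 12 and day 20), 0 to 303 for EMD150 against control and 0 to 591 for EMD150 against EMD50. The last 2 maxima came without day 12 EMD150, and without day 20 EMD150 the counts were 83 and 80. With 1 residual degree of freedom, a lone array is assumed to vary like the others. Ordered probe sets numbered 157 upward and 154 downward above the median level and 13 upward and 11 downward with every step at least 0.1. In alternatives added after the data were seen, they numbered 1174 and 787 without the day 12 EMD50 array in the rule, and 1660 and 1121 without that of day 20. All named genes kept their direction under every setting, except Serpina6 at 0.014 with the same median and SD. For genes ordered on both days, a kept direction without 1 array follows from the order by which they were chosen, so it is not a test. List medians moved to 0.18 (P450 list) and 0.083 (carboxylesterase list) with the same median and SD, to 0.057 (carboxylesterase), 0.061 (transporter) and 0.027 (fatty acid synthesis) after quantile normalisation, and to 0.003 (carboxylesterase) and 0.036 (transporter) with all probe sets. The transporter median was 0.047 with the same median and SD. Without 1 array at a time the medians ran from 0.11 to 0.17 (P450), -0.051 to 0.082 (carboxylesterase), 0.036 to 0.21 (glucuronyl transferase), 0.006 to 0.25 (glutathione transferase), 0.015 to 0.12 (transporter), -0.13 to 0.051 (fatty acid synthesis), 0.009 to 0.25 (cholesterol), -0.20 to -0.01 (fatty acid oxidation), -0.20 to -0.092 (gluconeogenesis), -0.23 to -0.10 (amino acid) and -2.66 to -0.96 (acinar). Over all settings the fitted change of Amy2a3 ran from -6.55 to -2.74 and that of Cpb1 from -2.68 to -0.78. The cause of these moves was not tested. No paired analysis was possible because the labels give no replicate numbers shared between groups; the day served as the block, and without it 0 probe sets were called.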

Other observations

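The largest differences between the days, outside the pancreatic genes, lay in probe sets that were chosen after their values were seen, and none passed limma's test of a slope difference between days (smallest adjusted p 0.373 over all probe sets). A2m, the acute phase protein alpha-2-macroglobulin, lay at 7.71 in control, 7.89 at EMD50 and 11.21 at EMD150 on day 12, and at 12.73, 12.06 and 12.11 on day 20. Lcn2, lipocalin 2, another acute phase gene, was also highest at EMD150 on day 12 (8.55, 8.58 and 9.97) and in the control on day 20 (9.29, 8.99 and 8.63). Probe set 1371076_at, to which the platform table gives several gene symbols and which is therefore not named, had the largest EMD150 minus control difference of day 12 among those probe sets. It lay at 7.59, 9.68 and 12.10 on day 12 and at 8.38, 7.97 and 8.83 on day 20, so it was ordered upward on day 12 only.

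Scd2, a stearoyl-CoA desaturase gene, lay at 7.74, 8.61 and 7.99 on day 12 and at 6.72, 7.52 and 9.55 on day 20, with its largest difference on the day 20 EMD150 array. Acot1, an acyl-CoA thioesterase gene and PPAR-alpha target, was at 7.62 in the day 20 control and between 5.47 and 5.58 on the other 5 arrays.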
